A study of Rattus norvegicus with 6 samples.

Results

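Renin-angiotensin and prostaglandin genes, 8 in all, were followed in cortex from kidneys of male Sprague-Dawley rats. They encode angiotensinogen, receptors of the renin-angiotensin system, angiotensin-converting enzyme, and enzymes that make or inactivate prostaglandins. The genes were chosen by name as *Agt*, *Agtr1a*, *Atp6ap2*, *Ace*, *Ptgs1*, *Ptgs2*, *Ptges* and *Hpgd*, and every non-control probe whose RefSeq accession belongs to one of them was taken. This gave 14 of the 61537 non-control probes on the array and 8 of the 15645 genes that could be named. Treated rats received 4-hydroxy-m-phenylenediammonium dichloride at 100 mg/kg/day for 4 weeks, and control rats received corn oil for 4 weeks. Each group held 3 animals, with 1 Cy3 array per animal. The rats of both groups were bought at 5 weeks of age, carry no transgene or deletion that the labels mention, and what the compound was dissolved in is not stated in those labels.

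The renin-angiotensin system is a hormone cascade. Angiotensinogen is cut to angiotensin I, angiotensin-converting enzyme makes angiotensin II from it, and angiotensin II acts on its type 1 receptor to constrict vessels and retain sodium. In the prostaglandin pathway, the cyclooxygenases encoded by *Ptgs1* and *Ptgs2* turn arachidonic acid into a shared precursor, prostaglandin E synthase makes prostaglandin E from it, and 15-hydroxyprostaglandin dehydrogenase inactivates the product. In the renal cortex prostaglandins widen the afferent arteriole and act against the constriction by angiotensin II.

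Levels below are log2 of a probe's signal over the 75th percentile of its array, and a difference is the treated mean minus the control mean on that log2 scale. Slide 2 carried every treated array and slide 1 every control array, each with its own scan, and in the differences given here the slide cannot be told apart from the treatment. Of 10 spike-in transcripts added to the RNA, the 7 that were well above background on all arrays had differences from -0.19 to -0.07, with a median of -0.13, after the same scaling. Between 63.1% and 69.6% of the non-control probes were well above background on an array, and the number of arrays limits the precision. Of the markers used to check the tissue label, 7 of 7 of the proximal tubule and 5 of 5 of podocytes passed the filter on dim probes, and so did 3 of 3 of the inner medulla. In tissue RNA, fewer cells of a type and less RNA per cell cannot be told apart.

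None of the 8 genes was called between the groups. With limma, 0 of 8 were higher and 0 of 8 were lower at an adjusted p under 0.05, where 4.36% of the 12130 genes tested were called, 3.03% higher and 1.33% lower. Over the 40988 probes kept, 0 of 13 were called, against 6.72% of all probes, 4.97% higher and 1.74% lower. Without adjustment, *Atp6ap2* alone had a p under 0.05, as 1 of 8 genes and with a lower mean, against 25.0% of all genes, 11.8% higher and 13.2% lower. The groups did not overlap for 1 of 8, again *Atp6ap2*, against 32.8% of all genes, 14.1% with all treated animals above and 18.7% with all below. Neither count exceeds its background. The mean was lower in treated cortex for 6 of 8, against 56.5% of all genes, and the median log2 fold change was -0.14 against -0.03 over all genes. All 8 genes passed the filter on dim probes, and 13 of their 14 probes did.

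**Figure D1:**
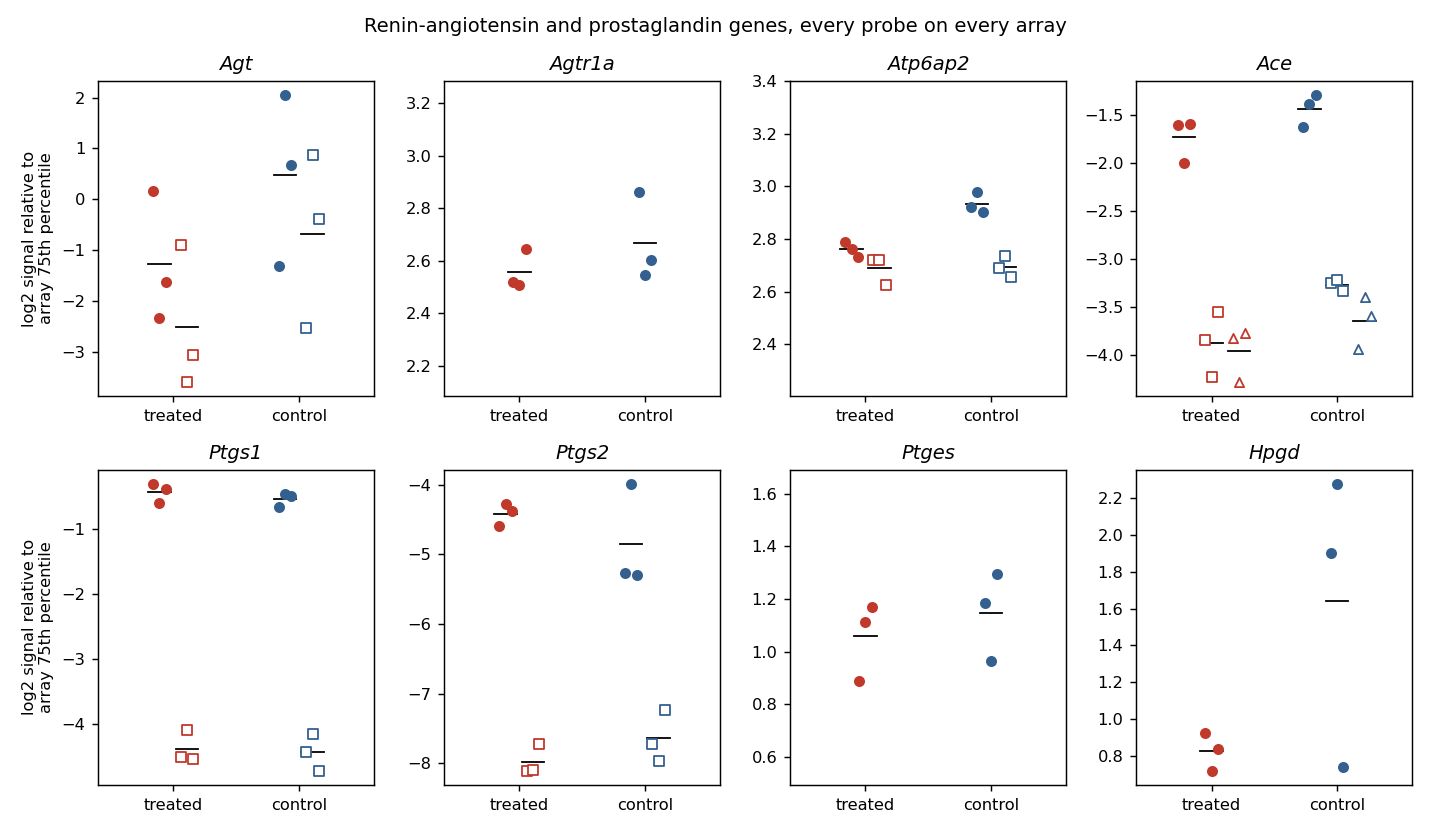
Log2 signal relative to the array's 75th percentile (vertical axes, each with its own range) for every probe of the 8 genes in the 3 treated and the 3 control animals. Each point is 1 array, filled for a gene's brightest probe and open for its other probes, and the black line is the mean of 3 arrays; *Agt* spreads over several log2 units within both groups, *Hpgd* has 2 high controls, and the *Atp6ap2* groups are apart at the filled probe only.

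Upstream windows are shown for the genes whose data are compared most closely below: *Ace*, with 3 probes, the 2 cyclooxygenase genes, which share a reaction but not a pattern of regulation, and *Hpgd*, which had the largest difference among the 7 genes with an entry in the RefSeq promoter table (build GRCr8). Each window is the 250 bases before the annotated start of the gene, read 5′ to 3′ on the gene's strand. Capitals mark matches, on either strand, to any of 5 motifs. The core promoter box was searched as TATAAA, the E-box as CACGTG, the cyclic AMP response element as TGACGT, the core of the antioxidant response element as TGACNNNGC, and the site of Sp-family factors as GGGCGG. The cyclic AMP and antioxidant motifs can share their first bases, and copies of the Sp site can overlap each other. The *Ace* window is chr10:91409879-91410128 on the plus strand, *Ptgs1* chr3:39981169-39981418 plus, *Ptgs2* chr13:64713813-64714062 plus and *Hpgd* chr16:39034832-39035081 minus.
Ace: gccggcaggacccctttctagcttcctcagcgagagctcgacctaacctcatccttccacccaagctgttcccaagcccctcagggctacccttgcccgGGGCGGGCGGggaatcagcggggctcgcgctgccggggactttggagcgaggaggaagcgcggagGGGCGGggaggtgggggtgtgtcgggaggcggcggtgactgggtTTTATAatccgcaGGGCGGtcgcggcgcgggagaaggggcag
Ptgs1: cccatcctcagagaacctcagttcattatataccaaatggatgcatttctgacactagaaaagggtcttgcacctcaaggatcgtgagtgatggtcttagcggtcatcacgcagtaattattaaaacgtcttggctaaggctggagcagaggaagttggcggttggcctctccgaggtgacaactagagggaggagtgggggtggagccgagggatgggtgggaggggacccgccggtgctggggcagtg
Ptgs2: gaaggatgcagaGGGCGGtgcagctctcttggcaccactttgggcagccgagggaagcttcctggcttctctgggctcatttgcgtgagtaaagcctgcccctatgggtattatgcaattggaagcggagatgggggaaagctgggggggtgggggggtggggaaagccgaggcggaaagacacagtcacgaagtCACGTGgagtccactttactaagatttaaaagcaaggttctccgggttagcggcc
Hpgd: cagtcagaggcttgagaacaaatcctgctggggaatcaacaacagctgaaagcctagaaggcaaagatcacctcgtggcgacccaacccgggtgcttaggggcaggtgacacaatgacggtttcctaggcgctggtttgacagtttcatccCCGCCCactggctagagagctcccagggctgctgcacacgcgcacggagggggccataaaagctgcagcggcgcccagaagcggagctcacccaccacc

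The *Ptgs2* window holds an E-box 55 to 50 bases before the start, and it was the 1 window of 7 with this motif, which occurs in 5.59% of all 33469 windows in the table. The *Ptgs1* window matched none of the 5 motifs, and the *Ptgs2* window did not match the core promoter box. That box was found in 2 of 7 windows, in *Ace* on the opposite strand 42 to 37 bases before the start and in *Agtr1a* 45 to 40 bases before it, against 12.9% of all windows. The antioxidant response element core was found in 1 of 7 windows, *Agtr1a* (10.1% of all windows), and the cyclic AMP element in 1 of 7, *Atp6ap2* (6.95% of all windows). The Sp site was found in 6 of 7 windows, against 30.5% of all windows, and the guanine and cytosine content was 69.2% in the *Ace* window and 54.4% in that of *Ptgs1*, against a median of 51.2% over all windows. These matches are descriptions of the letters and not of binding sites.

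*Agt*, which encodes angiotensinogen, the precursor of all angiotensin peptides, varied more between animals of the same group than nearly any other gene. Its brighter probe, A_64_P154849, had levels of 0.16, -2.34 and -1.62 in treated replicates 1, 2 and 3, against -1.31, 2.05 and 0.67 in control replicates 1, 2 and 3. The groups overlapped, with the highest level in control replicate 2 and the lowest in treated replicate 2. The control animals alone spanned 10.3-fold and the treated animals 5.69-fold. Its pooled SD within groups was larger than that of 99.5% of the genes tested. The mean was -1.27 ± 1.29 in treated and 0.47 ± 1.69 in control cortex (SD, n = 3 each), 3.33-fold lower, and this difference did not pass (log2 fold change -1.74, SE 1.02, 95% interval -4.26 to 0.79, limma adjusted p = 0.349). The log2 fold change was -0.95 without control replicate 2 and -2.63 without control replicate 1.

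The other *Agt* probe, A_43_P13272, followed the first on every array. It had levels of -0.90, -3.60 and -3.06 in treated replicates and -2.54, 0.88 and -0.40 in control replicates, and a log2 fold change of -1.83 (SE 1.07, probe-level adjusted p = 0.343). The gap between the 2 probes stayed between 1.07 and 1.44 on all 6 arrays, so the spread between animals was seen by both probes.

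Outside the 8 genes, the other pathway genes and the cell type markers, the genes whose levels over the 6 arrays, each centred on its own mean, differed least from those of *Agt* were *Slc7a13*, *Tff3* and *Hnmt*. Of these, *Slc7a13* was put into a segment marker list afterwards. *Slc7a13*, an amino acid transporter gene known from the straight part of the proximal tubule in rodents, differed from *Agt* by a root mean square of 0.20 on the log2 scale. It had levels of 4.17, 1.38 and 2.57 in treated animals, against 2.51, 5.89 and 4.23 in control animals. As with *Agt*, control replicate 2 was highest and treated replicate 2 lowest, which follows largely from choosing genes by closeness to *Agt* on these arrays. *Tff3*, a trefoil peptide gene, differed by 0.36, with 3.85, 2.34 and 2.56 in treated and 3.10, 5.99 and 4.39 in control animals. *Hnmt*, which encodes histamine N-methyltransferase, differed by 0.38, with -0.88, -3.78 and -3.08 in treated and -2.01, 1.61 and -0.62 in control animals. None of these 3 genes was called (limma adjusted p = 0.423, 0.285 and 0.288 in the same order). The other 7 members differed from *Agt* by 1.32 to 1.56. That measure is also large where a gene varies less than *Agt*, so it does not show whether those members follow the *Agt* pattern.

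**Figure D2:**
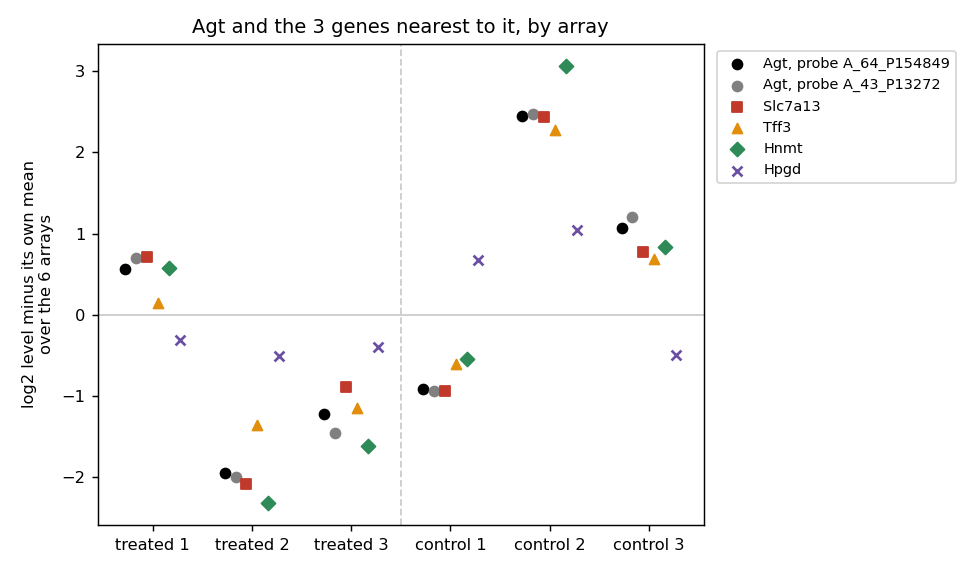
Log2 level minus the gene's own mean over the 6 arrays (vertical axis) for both *Agt* probes, *Slc7a13*, *Tff3*, *Hnmt* and, for contrast, *Hpgd*, on each array (horizontal axis, treated left of control). Each point is 1 probe on 1 array. The *Agt* probes and *Slc7a13* are above their means on treated 1, control 2 and control 3. *Hpgd* is above its mean on control 1 and control 2, and like *Agt* it is highest on control 2 and lowest on treated 2.

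Segment markers of the proximal tubule were set beside *Agt* with 2 lists of 5 genes each that were added after its values were seen. Of the straight-segment list, *Slc7a13*, *Slc22a7*, *Slc5a1*, *Slc6a18* and *Slc3a1*, 5 of 5 were tested and 0 were called, and the summed linear level, in units of the array's 75th percentile, ran from 218 to 255 in treated and from 215 to 315 in control animals. *Slc22a7*, an organic anion transporter gene of that segment in the rat, had levels of -1.48, -4.13 and -3.59 in treated and -3.88, -1.01 and -2.91 in control animals. *Slc3a1*, a subunit of the cystine transporter, stayed between 7.59 and 7.84 on all 6 arrays, so the list did not move as 1. Summed linear levels, here and for the lists below, mostly follow the brightest genes of a list, in this list *Slc3a1*. Of the convoluted-segment list, *Slc5a2*, *Slc2a2*, *Slc6a19*, *Slc7a7* and *Slc4a4*, 5 of 5 were tested and 0 were called, with summed levels from 231 to 241 in treated and from 226 to 271 in control animals. The part of these segments in the *Agt* values was not tested.

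*Agtr1a*, the main angiotensin II receptor gene of the rat kidney, was among the steadier members. It had levels of 2.52, 2.51 and 2.64 in treated animals, against 2.86, 2.55 and 2.60 in control animals. The groups overlapped, and the largest spread from lowest to highest array was 1.28-fold. The log2 fold change was -0.11 (SE 0.10, 95% interval -0.36 to 0.14, limma adjusted p = 0.525).

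*Atp6ap2* encodes an accessory subunit of the vacuolar proton pump that also acts as a receptor of the renin-angiotensin system. Its brighter probe, A_44_P1011008, had levels of 2.79, 2.76 and 2.73 in treated animals, against 2.92, 2.98 and 2.90 in control animals. All treated animals were below all controls by a narrow margin, 1.13-fold on average, and the difference did not pass (log2 fold change -0.17, SE 0.05, 95% interval -0.30 to -0.04, limma adjusted p = 0.119). Its pooled SD within groups, 0.034, was larger than that of only 3.54% of genes. The other probe, A_44_P317520, had 2.72, 2.72 and 2.63 in treated and 2.69, 2.74 and 2.65 in control animals, with a log2 fold change of -0.005 (SE 0.061, probe-level adjusted p = 0.968). The probes of this gene therefore disagreed. For scale, the spike-in transcripts ran from -0.19 to -0.07 and the median over all genes was -0.03, and neither is a null range for a single gene. The cause of the difference at the brighter probe was not tested.

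*Ace* encodes angiotensin-converting enzyme, a peptidase of the brush border and the vascular endothelium. Its brightest probe, A_64_P098230, had levels of -1.60, -2.0 and -1.59 in treated animals, against -1.62, -1.38 and -1.29 in control animals. The groups overlapped at control replicate 1, and the gene was not called (log2 fold change -0.30, SE 0.15, 95% interval -0.66 to 0.06, limma adjusted p = 0.272). Probe A_43_P11457 had -3.84, -4.23 and -3.55 in treated and -3.24, -3.22 and -3.33 in control animals. There all treated animals were below all controls, by 0.61 on the log2 scale (log2 fold change -0.61, SE 0.17, probe-level adjusted p = 0.0961), which did not pass and was -0.21 with a normexp background. Among all probes tested, 33.3% had groups that did not overlap, 16.6% with all treated animals above all controls and 16.7% with all below. Probe A_64_P010531 differed by -0.31 (SE 0.19, adjusted p = 0.370) with overlapping groups, so the mean was lower at 3 of 3 probes and called at 0 of 3.

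Endothelial and proximal tubule markers, the cells that carry *Ace*, are given beside it. Of the endothelial list, 5 of 6 genes were tested, 0 were called, and the summed level ran from 29.0 to 34.6 in treated and from 33.7 to 35.1 in control animals. Of the proximal tubule list, 7 of 7 were tested, 1 was lower and 6 were not called, against 1.33% of all genes lower. The lower 1 was the water channel gene *Aqp1* (log2 fold change -0.58, limma adjusted p = 0.034). The list median was -0.08 against -0.03 over all genes, and the summed level ran from 1179 to 1214 in treated and from 1227 to 1363 in control animals. Their part in the *Ace* values was not tested.

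*Ptgs1*, the constitutive cyclooxygenase gene, had levels of -0.32, -0.60 and -0.39 in treated animals, against -0.67, -0.47 and -0.50 in control animals, at its brighter probe A_44_P137448. The groups overlapped and the log2 fold change was 0.11 (SE 0.10, 95% interval -0.14 to 0.36, limma adjusted p = 0.530). The dimmer probe, A_64_P375942, differed by 0.05 (SE 0.19, adjusted p = 0.889). Its sign turned under quantile normalization and a normexp background. Of the platelet and mast cell list, whose cells use this enzyme, 6 were listed, 3 passed the filter and 0 were called, while *Cpa3* and *Mcpt1* did not pass it.

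*Ptgs2*, the inducible cyclooxygenase gene, lay close to the background of the array. Probe A_64_P129316 was well above background on 3 of 3 treated and 2 of 3 control arrays, with levels of -4.59, -4.27 and -4.37 in treated animals and -5.27, -3.99 and -5.30 in control animals. Control replicate 2 was the highest array of all and the other controls were the lowest, so the treated animals lay between them. The log2 fold change was 0.44 (SE 0.37, 95% interval -0.48 to 1.36, limma adjusted p = 0.502), and it was 0.01 with a normexp background. The gene passed the filter through the treated arrays alone. Without control replicate 2 the value was 0.87 (adjusted p = 0.0636 over genes and 0.0370 over probes), and it then rested on the 2 dimmest arrays, with signals of 23.5 and 21.3 in the controls left, against 41.6, 50.5 and 44.9 in treated animals. Over the 15 alternatives the adjusted p over genes ran from 0.0636 to 0.960. Probe A_44_P278593 was well above background on 0 of 3 treated and 0 of 3 control arrays, so no fold is given for it.

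*Nos1*, the marker that defines the macula densa in its list, did not pass the filter, and of that list and the thick limb together 4 of 5 genes were tested and 0 were called. The summed level of that list ran from 252 to 340 in treated and from 311 to 435 in control animals. It mostly follows the brightest gene, *Umod*, with log2 levels from 7.82 to 8.66, and holds no value of *Nos1*. It therefore gives no measure of the macula densa, whose part in the *Ptgs2* values was not tested. *Ptges*, which encodes the inducible prostaglandin E synthase, had levels of 0.89, 1.11 and 1.17 in treated animals, against 1.19, 0.96 and 1.30 in control animals. The groups overlapped, and the log2 fold change was -0.09 (SE 0.12, 95% interval -0.38 to 0.20, limma adjusted p = 0.667).

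*Hpgd* encodes 15-hydroxyprostaglandin dehydrogenase, the first enzyme of prostaglandin breakdown. Its only probe, A_43_P11278, had levels of 0.92, 0.72 and 0.83 in treated animals, against 1.90, 2.28 and 0.74 in control animals. Control replicates 1 and 2 were above every treated animal and control replicate 3 was within the treated range. The mean was 0.83 ± 0.10 in treated and 1.64 ± 0.80 in control cortex (SD, n = 3 each), 1.76-fold lower, and the difference did not pass (log2 fold change -0.81, SE 0.39, 95% interval -1.78 to 0.16, limma adjusted p = 0.265). Without control replicate 3, the control within the treated range, the log2 fold change was -1.27. This did not pass over genes (limma adjusted p = 0.0605) and passed over probes (adjusted p = 0.0241). The value was -0.68 without control replicate 1 and -0.49 without control replicate 2 (limma adjusted p over genes = 0.452 and 0.478). The control spread was 2.91-fold and the treated spread 1.15-fold, and whether the spreads differ was not tested.

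**Figure D3:**
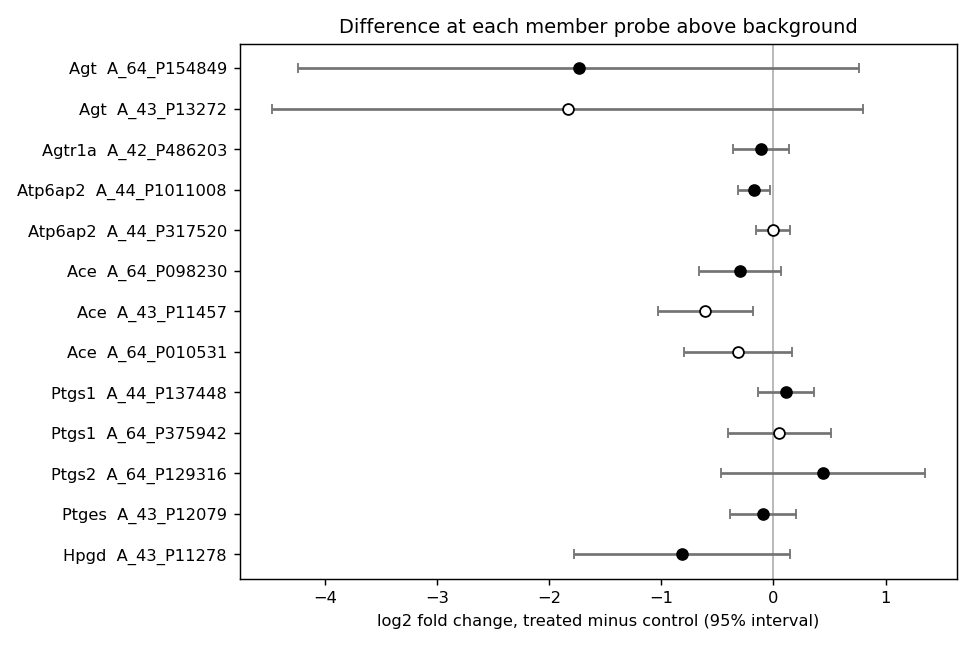
Log2 fold change, treated minus control (horizontal axis), at the 13 probes of the 8 genes that passed the filter, from the limma fit over all 40988 probes kept. Points are filled for a gene's brightest probe, bars are 95% intervals with no adjustment for the number of probes, and the intervals of 11 of 13 probes reach 0; those of 1 *Atp6ap2* probe and 1 *Ace* probe do not.

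The other genes of the renin-angiotensin and kinin system held 1 gene that rose and 1 that fell. Of 26 listed genes, 25 had a probe and 21 passed the filter, and of these 1 was higher, 1 was lower and 19 were not called, against 3.03% of all genes higher and 1.33% lower, with a median log2 fold change of -0.11 against -0.03 over all genes. *Bdkrb2*, the bradykinin receptor gene, had levels of -2.95, -2.99 and -2.87 in treated animals, against -3.36, -3.44 and -3.28 in control animals, and rose 1.34-fold (limma adjusted p = 0.036, log2 fold change 0.42 with SE 0.07). Its other probe above background, A_64_P036715, had a log2 fold change of 0.007 (adjusted p = 0.991), with overlapping groups. *Anpep*, the brush border aminopeptidase that trims angiotensin peptides, fell by 0.65 on the log2 scale (SE 0.09, adjusted p = 0.030). It had 3.60, 3.78 and 3.60 in treated animals, against 4.26, 4.44 and 4.21 in control animals, with no overlap. *Bdkrb2* and *Anpep* kept their direction in each of 16 alternatives, and neither passed when any 1 of the 6 arrays was left out (adjusted p from 0.0800 to 0.102 for *Bdkrb2* and from 0.0685 to 0.0971 for *Anpep*).

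Of the list for juxtaglomerular and vascular smooth muscle cells, 5 of 6 genes were tested, 1 rose and 4 were not called, against 3.03% of all genes higher. The 1 that rose was the smooth muscle actin gene *Acta2* (log2 fold change 0.50, limma adjusted p = 0.039). It was also the only 1 of the 5 whose groups did not overlap, and the list median was 0.06 against -0.03 over all genes. *Cnn1* did not pass the filter. *Hsd11b2*, the enzyme that protects the aldosterone receptor from glucocorticoids, is named here after its values were seen. It differed by -0.39 on the log2 scale (SE 0.10, limma adjusted p = 0.082), with all treated animals below all controls. Of the 21 tested genes of the renin-angiotensin and kinin list, 3 had all treated animals below and 1 had all above. Over all genes these shares were 18.7% and 14.1%.

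Of 27 other prostaglandin genes, 26 had a probe and 22 passed the filter, and of these 2 rose, 0 fell and 20 were not called, against 3.03% of all genes higher and 1.33% lower, with a median log2 fold change of -0.02. *Abcc4*, an efflux pump that also carries prostaglandins out of cells, rose at 4 of 4 probes, with 3.14, 3.56 and 3.66 in treated animals, against 2.24, 2.24 and 2.46 in control animals, at the brightest (limma adjusted p = 0.029, log2 fold change 1.14 with SE 0.15). The remaining probes differed by 1.18, 1.28 and 0.90 on the log2 scale (probe-level adjusted p = 0.027, 0.005 and 0.046). *Ptgir*, the prostacyclin receptor gene, had -0.79, -0.80 and -0.81 in treated animals, against -1.28, -1.36 and -1.17 in control animals. It rose 1.39-fold (log2 fold change 0.47, SE 0.07, limma adjusted p = 0.030). Its second probe was dimmer, with levels of -3.59, -4.02 and -4.21 in treated animals, against -4.80, -5.03 and -4.33 in control animals. The log2 fold change there was 0.78, which did not pass (probe-level adjusted p = 0.108). At both probes all treated animals were above all controls, against 16.6% of all probes. *Abcc4* and *Ptgir* kept their direction in each of 16 alternatives. *Abcc4* passed without treated replicate 1 (adjusted p = 0.0449) and did not pass without any other single array (adjusted p from 0.0728 to 0.0953), and *Ptgir* did not pass when any 1 array was left out (adjusted p from 0.0679 to 0.0970).

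*Pla2g2a*, a secreted phospholipase that frees arachidonic acid and a further gene named after its values were seen, had -2.52, -3.41 and -3.54 in treated animals, against -3.97, -4.54 and -4.32 in control animals. All treated animals were above all controls, and the difference did not pass (limma adjusted p = 0.0973, log2 fold change 1.12 with SE 0.31). Of the 22 tested prostaglandin genes, 3 had all treated animals above all controls and 3 had all below, against 14.1% and 18.7% of all genes. Those below included 2 other phospholipase genes, also named after their values were seen, *Pla2g6* with a log2 fold change of -0.24 and *Pla2g10* with -0.27 (adjusted p = 0.159 and 0.183). The receptor genes *Ptger3* and *Ptger4* for prostaglandin E, named outside the naming rule given below, had log2 fold changes of -0.20 and 0.06 (limma adjusted p = 0.332 and 0.827). *Ptger4* was dim, with levels from -4.46 to -3.93. Of the other listed receptor genes for prostaglandin E, *Ptger2* did not pass the filter and *Ptger1* had no probe. Beside these genes, the red blood cell list had 3 of 3 tested members with all treated animals above all controls, against 14.1% of all genes, 0 of them called, and summed levels from 222 to 328 in treated and from 145 to 189 in control animals. The macrophage list had 5 of 6 members tested and 0 called, with summed levels from 9.80 to 12.5 in treated and from 10.72 to 15.1 in control animals. The part of either cell type in these values was not tested.

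**Figure D4:**
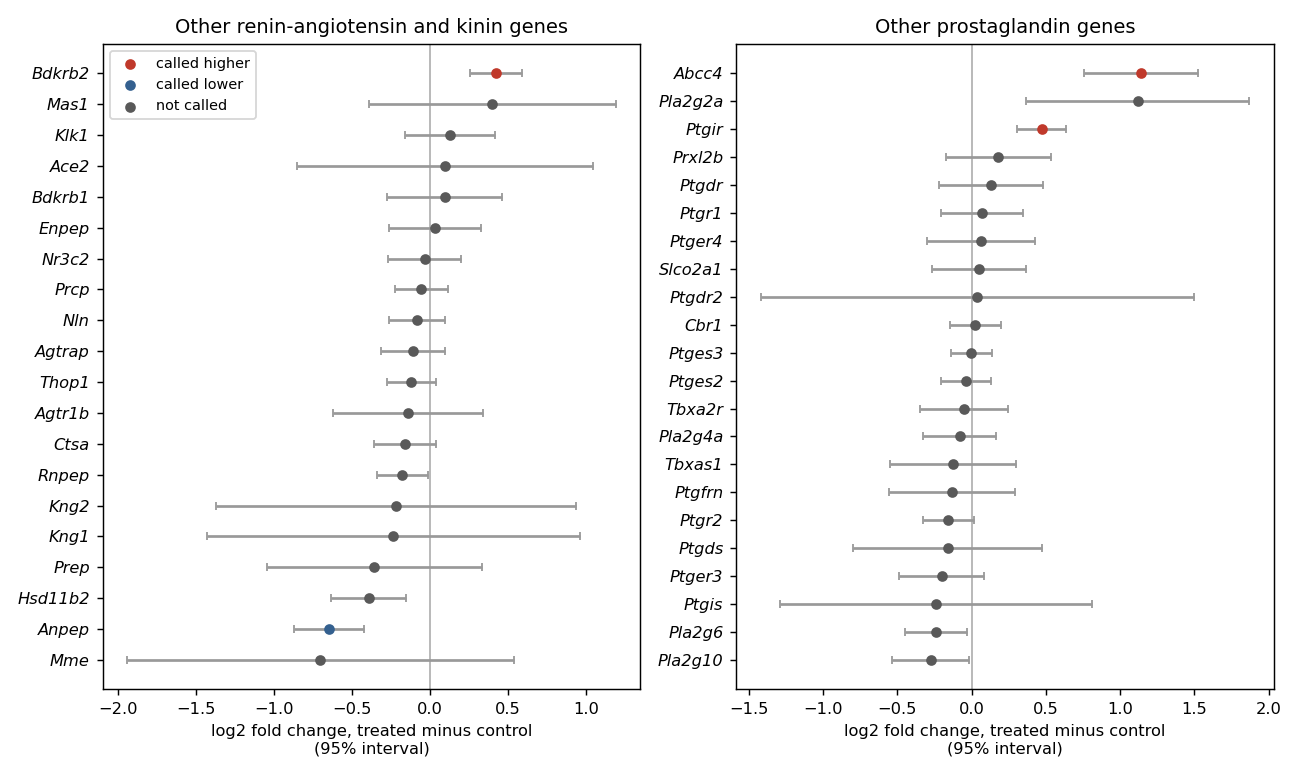
Log2 fold change, treated minus control (horizontal axes), for 20 of the 21 tested genes of the renin-angiotensin and kinin list and the 22 tested genes of the prostaglandin list. Points are estimates from the limma fit over 12130 genes, bars are 95% intervals with no adjustment for the number of genes, and colour marks an adjusted p under 0.05; *Bdkrb2*, *Abcc4* and *Ptgir* were called higher and *Anpep* lower.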

How the data were processed

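Kidney cortex RNA from 6 rats was labelled with Cy3 and each animal measured on its own Agilent array. The deposited intensity of a spot is, per the file headers, a background-subtracted and detrended signal from Agilent Feature Extraction, on a design tied to the rat build rn4, so no probe coordinates are given. The deposited value table is a linear ratio. Each column matched the array's signal over its own 75th percentile (median quotient 0.998). Column medians were 0.110, 0.108 and 0.108 for treated and 0.105, 0.104 and 0.109 for control arrays. The direction and scale came from this comparison.

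Levels here are log2 of the processed signal minus that percentile over non-control probes. Outlier spots, 1 to 3 per array, were left out, no spot was saturated, and no 2 arrays held identical signals. RefSeq accessions of assembly GRCr8 named 28206 probes. The other 33331 probes were unnamed and entered only the fit over probes. Probes had to be well above background on all 3 arrays of either group, and a gene was represented by its brightest such probe. The 12130 genes, and separately the 40988 kept probes, were each fitted in R 4.3.3 by lmFit and eBayes of limma 3.58.1, with Benjamini-Hochberg adjustment over all of them at 0.05. The fit was tested on simulated data. Intervals are 95% intervals without adjustment.

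The 8 genes, the lists and the naming rule were chosen with earlier results of these data known, so no list is independent support. The rule names all 8 genes and their probes, up to 4 called genes of each of the 2 other pathway lists, called or undetected cell type markers, and the 3 genes nearest to the member with the largest difference. Markers not well above background that are not named above are *Lum*, *Pvalb* and *Cd163*. The lists of fibroblast and pericyte (5 tested), collecting duct (5 tested), distal convoluted tubule (2 tested), inner medulla and podocyte markers had 0 called. Median spot and background signals, both deposited intensities, were used for the normexp alternative, since the files hold no mean spot signal. Values of 1 uncalled gene of the renin-angiotensin list are not reported here. A slide or scan block could not be fitted, because each held 1 group.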

Additional observations from a re-analysis of the deposited data

How the results depend on the processing

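The 8 genes kept their direction in all alternatives that gave a value, 15 for *Ptgs2* and 16 for each of the others, and limma called 0 of 8 over genes in every one. *Ptgs2* has no value under the filter that asks for all arrays well above background. *Agt* ranged from -2.63 to -0.95, *Hpgd* from -1.27 to -0.49 and *Ace* from -0.41 to -0.16. Of the second probes, the log2 fold change of *Ptgs1* A_64_P375942 turned to -0.025 with normexp and to -0.021 with quantile normalization, and ran from -0.089 to 0.195 when 1 array was left out. That of *Atp6ap2* A_44_P317520 turned to 0.012 with quantile normalization and ran from -0.024 to 0.026 when 1 array was left out. The cause was not tested.

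Counts of calls moved more. Against 368 genes higher and 161 lower, normexp called 507 lower, no filter 37 and 7, the replicate block 0 and 0, an intensity trend in the variance 395 lower, the mean of a gene's probes 229 and 63, and a fold of at least 2 left 47 and 9. Leaving out 1 array gave 0 to 48 higher and 0 to 6 lower, with fewer samples. Of the calls 69.6% were higher, against 47.5% with normexp and 52.7% with the trend. Against 2039 probes higher and 715 lower, normexp called 1718 lower, no filter 942 and 120, the replicate block 412 and 24, the trend 1643 lower, a fold of at least 2 left 491 and 34, and leaving out 1 array gave 750 to 1326 higher and 90 to 152 lower. Of the other renin-angiotensin genes 1 was higher and 1 lower. Of these lists, 2 of the first were lower with normexp, 0 higher with the trend or the mean of probes, and 0 and 0 with no filter, the block or a fold of at least 2. Of the other prostaglandin genes 2 were higher; 1 was with the mean of probes or a fold of at least 2, and 0 with no filter or the block. Leaving out 1 array gave 0 and 0 in the first list and 0 to 1 higher in the second, *Abcc4* without treated replicate 1.

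Replicate numbers were not used to pair the animals in the main fit. Same-numbered animals had correlations of their deviations from the group means of -0.12, -0.11 and 0.09. Differently numbered animals had -0.09 to 0.21. With 3 animals per group these values cannot exclude a pairing. Under the block 2546 genes had an unadjusted p under 0.05, against 3034 without it. Median scaling moved the median of all genes from -0.030 to -0.064. *Ptgs2* moved to 0.01 with normexp and to 0.87 without control replicate 2, so both its signal near background and the spread between control animals limit it.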

Other observations

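Beyond the 3 genes nearest to *Agt*, the list of the 12 nearest held 4 organic anion transporter genes whose symbols start with *Slco1a*, counted after their values were seen. *Slco1a6* had log2 levels of -0.38, -2.55 and -2.21 in treated animals, against -1.99, 0.92 and -0.67 in control animals. *Slco1a1* had -1.15, -2.69 and -2.36 in treated animals, against -1.34, 1.83 and -0.65 in control animals. *Mep1b*, which encodes a brush border metallopeptidase subunit, had 3.42, 0.83 and 1.97 in treated animals, against 1.57, 4.17 and 2.60 in control animals. Control replicate 2 was the highest array and treated replicate 2 the lowest for *Slco1a6*, *Slco1a1* and *Mep1b*, and the groups overlapped for all 12. Both follow largely from choosing these genes by closeness to *Agt* on the same arrays. The share of *Slco1a* genes among all genes tested was not worked out. The *Slco1a* genes are close relatives whose probes may share signal, so each value is uncertain.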
